A study of Drosophila melanogaster with 3 samples.

Results

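The genes described here are 10 genes of the Drosophila piRNA pathway, taken by their FlyBase gene IDs: aub (FBgn0000146), piwi (FBgn0004872), AGO3 (FBgn0250816), vas (FBgn0262526), spn-E (FBgn0003483), tud (FBgn0003891), krimp (FBgn0034098), qin (FBgn0263974), armi (FBgn0041164) and mael (FBgn0016034). They are 10 of the 6502 genes with at least 1 interval in the series and hold 114 of its 51962 intervals. Binding was mapped by iCLIP of GFP-tagged Aubergine (Aub) in 3 libraries. In iCLIP, ultraviolet light crosslinks a protein to bound RNA, and the RNA purified with the protein is sequenced. All 3 libraries came from cultured germline stem cells of 1 genotype. The cells carried 1 copy of a UASp-GFP-aub transgene, which nos-gal4 drives in germ cells. Both copies of bam, a gene that germ cells need to differentiate, were the bam∆86 deletion, and the cells also carried hs-bam (bam under a heat-shock promoter). They were irradiated with 150 mJ/cm2 at 254 nm and received no drug. Whether each library had a culture of its own is not stated in the labels, so differences among them may reflect technical handling alone. No control library was analysed here.

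piRNAs are small RNAs that guide the silencing of transposons in the germline. Aub and AGO3 cut transposon and piRNA precursor transcripts in turn in the nuage, a perinuclear granule of germ cells, and Piwi carries piRNAs into the nucleus to silence transcription. Helicases and Tudor-domain proteins gather these Argonautes and their RNAs. The files list stretches of RNA of these same genes that the authors called from the Aub libraries, not how strongly the genes were expressed.

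Replicate 1 held 15 intervals in these genes, replicate 2 held 64 and replicate 3 held 35. The libraries had 4007, 36157 and 11798 intervals in all. Each interval is a stretch of RNA called by the authors separately in each library, with no height, so depth in reads is unknown. A gene without an interval had no called stretch, which does not show that Aub was absent from its RNA. Intervals were not scaled to gene or transcript length, so counts are compared between libraries and not between genes. No annotation of the dm3 genome build was used, so exons, introns and untranslated parts are not named. Distances along a gene run from the 5′-most edge of its own intervals.

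Of the 10 genes, 6 had an interval in every library: aub, piwi, vas, spn-E, qin and armi. The same held for 20.9% of all genes with any interval. krimp and tud had intervals in replicates 2 and 3, which brought the genes with at least 2 libraries to 8 of 10 (49.0 to 94.3%). Over all genes the share was 50.3%, inside that range. AGO3 was present in replicate 3 alone and mael in replicate 2 alone. The median over the 10 genes was 1.5, 6 and 4 intervals in replicates 1, 2 and 3, zeros included. Over all genes with an interval in the library concerned it was 2, 3 and 2. The genes were chosen with results of these data known, so these ranges are a description and not a test.

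**Figure D1:**
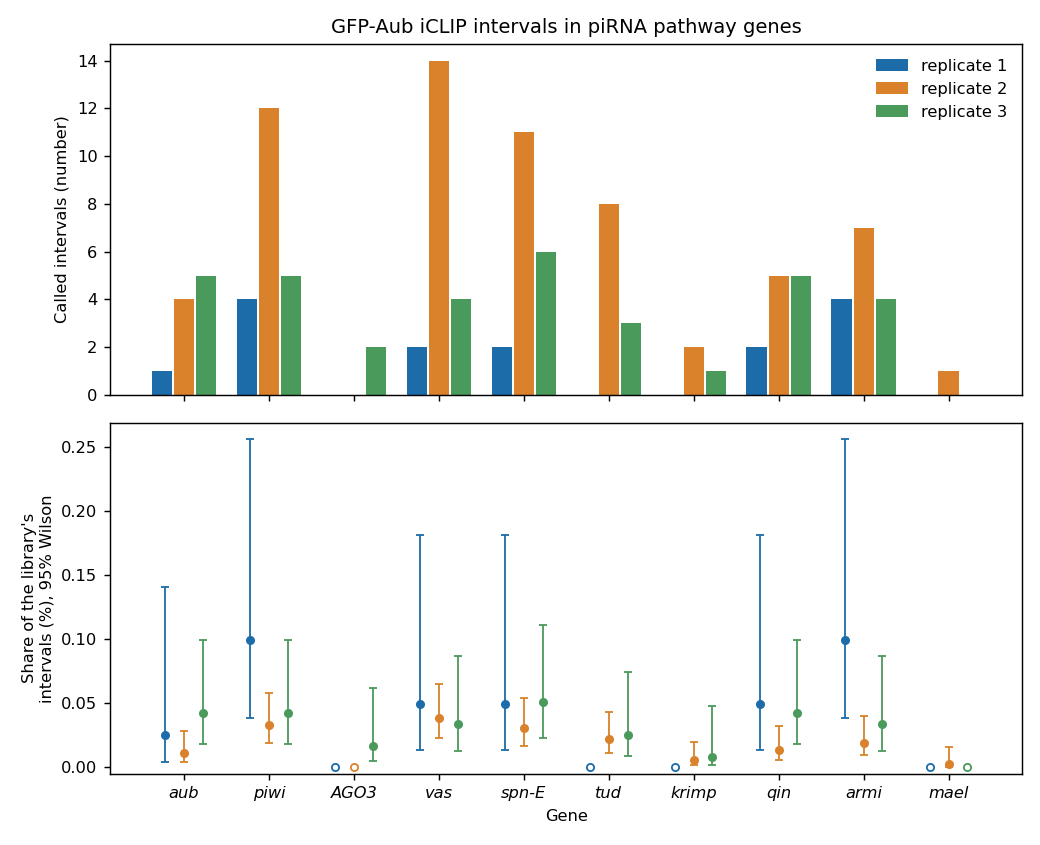
Called intervals in each of the 10 genes (top, number) and the same as a percentage of the library's intervals (bottom, points with 95% Wilson intervals, open points at 0), by replicate. Replicate 2 has the tallest bar for piwi, vas, spn-E, tud, krimp, armi and mael, whereas replicate 3 has the tallest for aub and AGO3 and equals replicate 2 for qin.

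The 10 genes together made up 0.374% of the intervals of replicate 1 (95% Wilson interval 0.227 to 0.617), 0.177% of replicate 2 (0.139 to 0.226) and 0.297% of replicate 3 (0.213 to 0.412). The mean was 0.283% ± 0.099 (SD, n = 3). These intervals treat called stretches as independent and cover counting error only. The share of replicate 2 was the lowest of the 3, and its interval overlapped that of replicate 3 but not that of replicate 1. Replicate 2 also spread over the most genes, 6364 against 1459 and 3310. Among the 1361 genes with an interval in every library, the 6 genes of the pathway held 0.390% (0.236 to 0.642), 0.276% (0.211 to 0.360) and 0.384% (0.268 to 0.552) of the intervals, and these ranges overlapped.

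piwi encodes the nuclear Argonaute of the pathway. Replicates 1, 2 and 3 had 4, 12 and 5 intervals there, all on the minus strand of 2L between positions 10982345 and 10987416. They were 0.100%, 0.033% and 0.042% of the libraries (0.058% ± 0.036, SD, n = 3). Intervals of all 3 libraries met at both ends of the covered stretch. Intervals with at most 50 nt between them on a strand, pooled over the libraries, were joined into regions.

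The 3′-most region of piwi, from 10982345 to 10982536, held 3, 7 and 1 intervals. Replicate 1 had 10982350 to 10982374, replicate 2 had 10982345 to 10982385 and replicate 3 had 10982348 to 10982368, so the stretch called in replicate 2 contained those of the other two. The 5′-most region, from 10987322 to 10987416, held 1, 2 and 3 intervals. There the interval of replicate 1 ran from 10987335 to 10987359, and intervals of 10987324 to 10987392 in replicate 2 and 10987334 to 10987375 in replicate 3 covered it whole. Between the 2 regions lay 1 interval of replicate 3 (10985959 to 10985983) and 3 of replicate 2 (from 10982656 to 10982905). The longest stretch of piwi without an interval was 3053 nt.

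Both outermost regions thus held all 3 libraries, which was true of 2.06% of the 1361 genes with an interval in every library (28 genes). The 1361 genes were not limited by number of regions, and a gene with 1 region could not count. At least 1 region of all 3 libraries was present in 61% of them. This comparison was chosen after the positions of piwi had been seen and is a description. Some of the intervals of piwi were pieces of 1 site. When intervals of a library with at most 10 nt between them were joined, its counts became 2, 7 and 3. The same step gave 2, 8 and 4 for vas, 2, 6 and 6 for spn-E and 0, 5 and 3 for tud. The other genes kept their counts.

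aub encodes the protein that was pulled down. It had 1, 4 and 5 intervals in the 3 replicates in order, on the minus strand of 2L between 10997891 and 11000874. Its shares were 0.025%, 0.011% and 0.042% (0.026% ± 0.016, SD, n = 3). The count was higher in replicate 3 than in replicate 2, although replicate 2 held 3.06 times as many intervals as replicate 3. Over the 10 genes together the ratio of replicate 2 to replicate 3 was 1.83, and for aub it was 0.80. Of the genes with an interval in every library, 4.19% had more in replicate 3 than in replicate 2 (57 of 1361). Among the 6 such genes of the pathway this was aub alone, while qin had equal counts, as had 71 of the 1361 (5.22%). The 95% Wilson intervals of the share of aub overlapped (0.0043 to 0.0284% in replicate 2, 0.018 to 0.099% in replicate 3). Such an overlap is not a test, and the difference between the 2 libraries was not tested.

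The intervals of aub fell in 6 regions. A single one held all 3 libraries, 834 to 914 nt from the 5′-most edge, where replicate 1 had 10999961 to 10999985, replicate 2 had 11000020 to 11000040 and replicate 3 had 10999990 to 10999998. The 3 stretches did not overlap: 4 nt lay between those of replicates 1 and 3, and 34 nt between those of replicates 1 and 2. Replicates 2 and 3 also shared the 5′-most region, with 11000850 to 11000874 and 11000813 to 11000837, and a region near the 3′ edge, with 10997968 to 10997978 and 10998012 to 10998039. No stretches overlapped there either: the smallest gap between replicates 3 and 2 in aub was 12 nt. The other intervals were 10999737 to 10999748 in replicate 2, and 10998661 to 10998680 and 10997891 to 10997903 in replicate 3. RNA of the GFP-aub transgene and of the resident aub gene cannot be told apart in these intervals. Whether the transgene contributed to them was not tested.

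**Figure D2:**
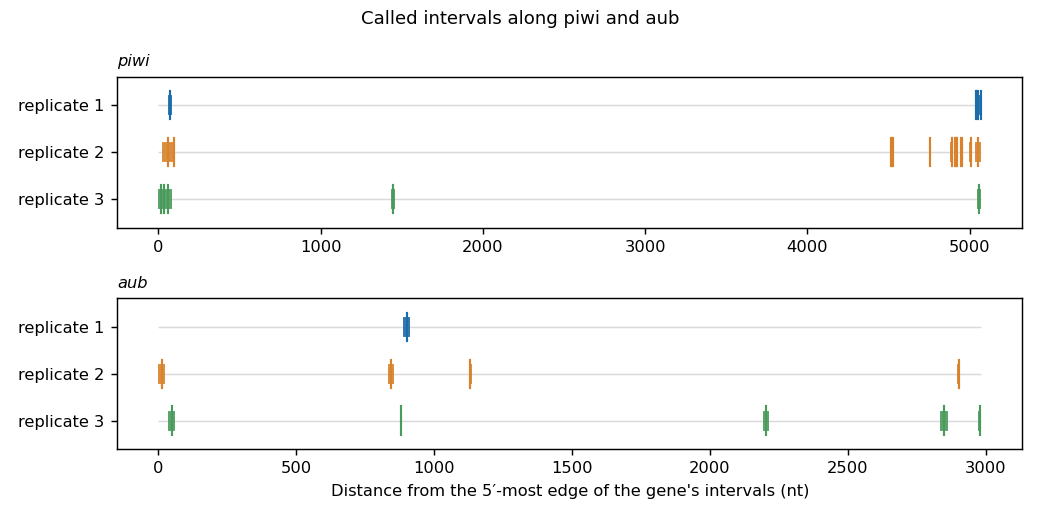
Intervals of each library along piwi and aub, plotted as distance in nt from the 5′-most edge of the gene's intervals (thick marks span the interval, and thin lines mark its midpoint and are wider than the narrowest intervals). In piwi all 3 libraries meet at both ends, within 95 nt of the 5′-most edge and beyond 4880 nt. In aub all 3 have an interval in 1 region from 834 to 914 nt, without overlap.

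piwi and aub are close neighbours on 2L. Their intervals were 10474 nt apart on the same strand. In the RefSeq gene table of Release 6, CG12253 and TTLL4A stand between them. The files held 11 intervals of 2 gene IDs in this gap, 0, 9 and 2 in replicates 1, 2 and 3, all on the plus strand.

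By the numbers of intervals alone, the genes most like aub over the 3 libraries were FBgn0034598 with 1, 4 and 5 intervals, FBgn0014007 with 1, 4 and 6, and FBgn0011604 with 1, 4 and 4. Their Euclidean distances from aub in log2(intervals + 1) were 0, 0.22 and 0.26. For piwi they were FBgn0017418 and FBgn0243512, both with 4, 12 and 5 intervals, and FBgn0010434 with 4, 11 and 5 (distance 0.12). No symbol for these IDs was at hand.

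AGO3 encodes the partner of Aub in reciprocal cutting and lies in pericentromeric heterochromatin. It had 0, 0 and 2 intervals in replicates 1, 2 and 3. Both were on the plus strand of 3L and 25 nt wide, from 23562037 to 23562061 and from 23642319 to 23642343, with 80257 nt between them. Replicate 2, the library with the most intervals, had none in this gene, so the positions could not be compared between libraries.

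Of the RNA helicases of the nuage, vas encodes the DEAD-box helicase Vasa, needed to pass cut RNAs between Aub and AGO3. It had 2, 14 and 4 intervals between 15061712 and 15074245 on the plus strand of 2L, or 0.050%, 0.039% and 0.034% of the libraries (0.041% ± 0.0082, SD, n = 3). The shares of vas thus differed little between libraries, but its positions did not coincide. Replicate 1 had 2 intervals, from 15073701 to 15073702 and from 15073767 to 15073789. Replicate 2 had 5 within the first 71 nt (15061712 to 15061782), 1 near the middle and 8 from 15072472 onwards. Replicate 3 had 3 from 15068500 to 15068810 and 1 from 15072884 to 15072908. The closest approach was 87 nt, between replicates 3 and 2.

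None of the 14 regions of vas held more than 1 library, and the same was true of the 11 regions of qin. Of the 489 genes with an interval in every library and at least 10 regions, 14 (2.86%) had no region of more than 1 library, and vas and qin are among these. The rule for that count was chosen after the positions had been seen. It depends on the joining distance: with 200 nt in place of 50 nt, vas had 7 regions, 2 of them with more than 1 library, and qin had 9, also 2 of them with more than 1. In the RefSeq table, ordered by start position, solo is the next gene after vas. Whether solo and vas overlap was not examined. In the files no interval of vas, or of the other 9 genes, was also assigned to a second gene.

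spn-E encodes Spindle-E, a helicase with a Tudor domain. It had 2, 11 and 6 intervals between 11663469 and 11670108 on the plus strand of 3R (0.050%, 0.030% and 0.051%, with a mean of 0.044% ± 0.012, SD, n = 3). The 3′-most region, from 11669918 to 11670108, held 0, 4 and 2 intervals. A region of 25 nt from 11668188 to 11668212 held 0, 2 and 1. Neither of the 2 intervals of replicate 1, 11666317 to 11666341 and 11668346 to 11668370, lay near an interval of another library: the closest lay 133 nt from the second of them. Of the 6 intervals of replicate 3, 3 lay within 10 nt of one of replicate 2.

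The Tudor-domain proteins bind methylated arginines of Piwi proteins. tud encodes Tudor, which binds Aub in the germ plasm of the oocyte. It had 0, 8 and 3 intervals between 17071155 and 17079873 on the plus strand of 2R. The 5′-most region, from 17071155 to 17071259, held 3 intervals of replicate 2 and 1 of replicate 3, and was the only one of its 6 regions with more than 1 library. krimp encodes Krimper, a Tudor protein that brings Aub and AGO3 together. It had 0, 2 and 1 intervals on the minus strand of 2R. The interval of replicate 3, from 12125644 to 12125680, contained one of replicate 2, from 12125658 to 12125672. The remaining one, of 4 nt, lay 2483 nt upstream. These 2 genes had no interval in replicate 1, in which a single interval is 0.025% of the library.

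qin encodes a protein with Tudor and RING domains that limits cutting between 2 Aub proteins. It had 2, 5 and 5 intervals between 14416767 and 14475644 on the plus strand of 3R (0.050%, 0.014% and 0.042%, with a mean of 0.035% ± 0.019, SD, n = 3). They fell in 2 groups with 53137 nt between them. The 5′ group, within 930 nt, held 3 intervals of replicate 2 and 1 of replicate 3. The 3′ group held 2, 2 and 4 intervals, and the closest to each other across libraries in either group were 72 nt apart.

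armi encodes Armitage, a helicase that feeds piRNA precursors to the cutting machinery at mitochondria. It had 4, 7 and 4 intervals between 3461376 and 3465387 on the plus strand of 3L (0.100%, 0.019% and 0.034%, with a mean of 0.051% ± 0.043, SD, n = 3). The share in replicate 1 was the highest. Its Wilson interval (0.0388 to 0.256%) overlapped that of replicate 3 (0.0132 to 0.0872%). It overlapped that of replicate 2 (0.0094 to 0.0400%) only at the edge. The differences were not tested. Of its 10 regions 3 held 2 libraries and none held 3. Replicates 2 and 3 met from 3462473 to 3462476 and from 3464407 to 3464436. Replicates 1 and 2 met from 3462865 to 3462891, where an interval of 25 nt and one of 1 nt lay 1 nt apart. The other 3 intervals of replicate 1 lay nearest the 3′-most edge, 3823 to 4012 nt from the 5′-most edge, where the other libraries had none.

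mael encodes Maelstrom, which acts with Piwi in transcriptional silencing. Its 1 interval, of 6 nt, lay from 22717595 to 22717600 on the plus strand of 3L in replicate 2.

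**Figure D3:**
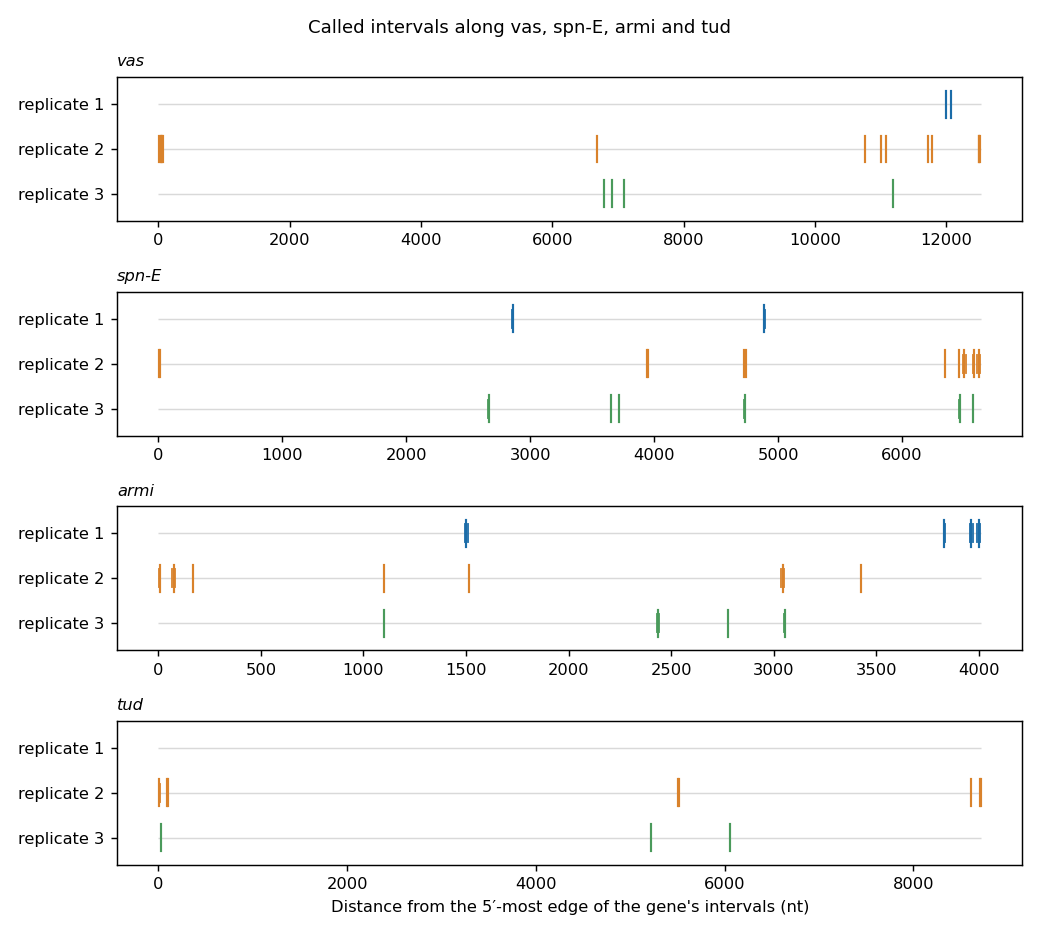
Intervals of each library along vas, spn-E, armi and tud, plotted as distance in nt from the 5′-most edge of the gene's intervals (marks as for piwi and aub). The 3 libraries occupy different stretches of vas, replicates 2 and 3 meet near the 3′-most edge of spn-E, and tud has no interval in replicate 1.

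Over the 10 genes the intervals formed 67 regions. All 3 libraries were present in 3 of them (4.48%, 95% Wilson interval 1.53 to 12.4), namely both outer regions of piwi and 1 of aub, beside 4.69% of the 26114 regions of the whole series. At least 2 libraries were present in 12 (17.9%, 10.6 to 28.7), beside 20.1%. The shares of the pathway genes were near the background. Without replicate 1, 11 of 59 regions held both remaining libraries (18.6%), beside 17.5% of 25112 regions of the series. Of the 6 pathway genes with an interval in every library, 2 had a region with all 3, beside 61% of the 1361 such genes. The difference was not tested.

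**Figure D4:**
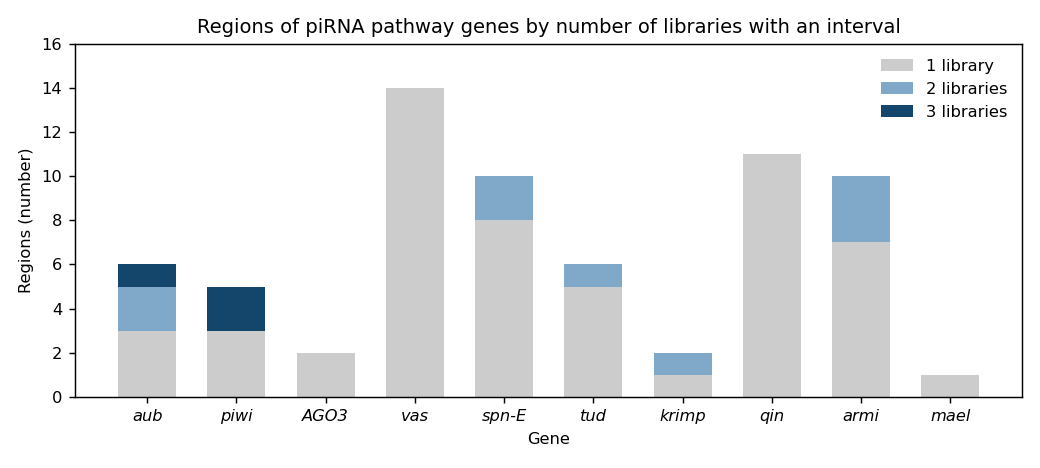
Number of regions (intervals joined within 50 nt) in each of the 10 genes, stacked by how many libraries had an interval there. Regions of all 3 libraries occur in aub (1) and piwi (2), and all regions of vas (14) and qin (11) hold a single library.

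Position by position, replicate 2 had an interval within 10 nt of 5 of the 15 intervals of replicate 1 (33.3%, Wilson bounds 15.2 to 58.3), beside 59.9% of all intervals of replicate 1. Against replicate 3 it was again 5 of 15 (33.3%, 15.2 to 58.3), beside 33% of all. Of the 35 intervals of replicate 3, 11 lay within 10 nt of replicate 2 (31.4%, 18.6 to 48.0), beside 46.6%. The share was below that of all intervals in both comparisons with replicate 2 and close to it between replicates 1 and 3. Averaged over the 3 pairs, which share libraries, it came to 32.7% ± 1.10 (SD), beside 46.5% ± 13.4 for all intervals. Among intervals at or above the median width of their library it was 18.9% ± 8.39 for the pathway genes and 35.3% ± 13.3 for the whole series.

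A single gene carried much of this agreement. All 4 intervals of piwi in replicate 1 lay within 10 nt of both other libraries, and so did 4 of its 5 intervals in replicate 3 with regard to replicate 2. Some of these were pieces of 1 site. When intervals of a library were joined within 10 nt, piwi had 2 sites in replicate 1 and 3 in replicate 3. With that joining the mean over the 3 pairs for the 10 genes was 24.5%. The same value was not computed for all intervals. Without piwi the shares were 1 of 11 (9.09%), 1 of 11 (9.09%) and 7 of 30 (23.3%), with a mean of 13.8%. Intervals of a gene are not independent of each other, and a single gene moves these shares by a large step. For that reason no test of the difference from all intervals was made.

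**Figure D5:**
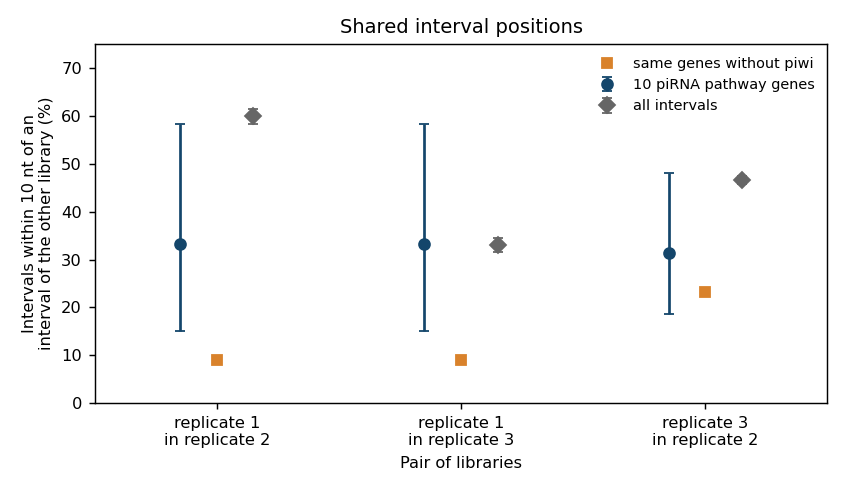
Percentage of intervals of the smaller library that lie within 10 nt of an interval of the larger library, for the 10 genes (circles), the same genes without piwi (squares) and all intervals (diamonds), with 95% Wilson intervals for circles and diamonds. For the 10 genes the values lie between 31.4% and 33.3%, and without piwi they fall to between 9.09% and 23.3%.

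The widths of the intervals followed the library. In these genes the median width was 25 nt in replicate 1, 9.5 nt in replicate 2 and 21 nt in replicate 3, beside 25, 13 and 25 nt over all intervals. Widths of exactly 25 nt made up 10 of 15 intervals in replicate 1, 3 of 64 in replicate 2 and 11 of 35 in replicate 3 (66.7%, 4.69% and 31.4%). Over all intervals these shares were 52.1%, 9.0% and 47.5%. Intervals of at most 5 nt numbered 3, 23 and 4 (20%, 35.9% and 11.4%), beside 8.56%, 28.3% and 11.2%. The widest was the 69-nt interval of piwi in replicate 2, 24 to 93 nt from its 5′-most edge. The 10 genes covered 301, 840 and 662 nt in replicates 1, 2 and 3, which was 0.354%, 0.130% and 0.280% of the nucleotides covered in each library, the same order as the shares of intervals.

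A list of 27 other genes of the pathway could be matched for 2 of them, because the files carry no symbols. FBgn0003607, which encodes the heterochromatin protein HP1a, had 2, 10 and 1 intervals. Boot, which encodes Bootlegger, a factor for the export of piRNA precursors from the nucleus, had 0, 2 and 0. None of the 9 marker genes of somatic gonad, blood or fat body cells in the lists could be matched. Of 8 germline markers 3 could be matched, namely vas, aub and piwi, which are among the 10 genes described above, and piwi is also active in somatic cells of the gonad.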

How the data were processed

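The submitters' processing notes name TopHat2 2.0.13, CASAVA 1.4 and genome build dm3. For the peak caller, its threshold and the use of the 5-nt random barcode, nothing is stated in the labels or files. The authors deposited 1 interval list per library, with a score of 0 in every row, so peaks have no height and no other measure of depth. Other values in the deposited files are positions and gene IDs. Positions are printed 1-based on dm3.

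The members and lists were chosen with earlier results of these data known, and all 10 members are named. Symbols follow the given list of members, and each stands on the same chromosome in the RefSeq Release 6 gene table, which was used for names and neighbours only. Distances are counted on the same strand. Rows at the same position given to a second gene were counted once for positions. Shares have 95% Wilson intervals. With 1 group and no control there was no test between groups. The genes most like aub and piwi (the member with most intervals) are the 3 nearest by Euclidean distance in log2(intervals + 1), computed here from the deposited intervals. The overlap and joining steps were tested on simulated data. Alternatives were other distances, widths, units and libraries left out. No sequence is shown, because none of this build was used here. Software was pandas 2.3.3, numpy 2.4.6, matplotlib 3.10.9 and scipy 1.17.1 under Python 3.11.15.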

Additional observations from a re-analysis of the deposited data

How the results depend on the processing

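Of 36 alternative values, 29 moved by less than 1 SD or, for counts, by at most 1.5 times, and 7 moved further. The SD was taken over the libraries, but over the 3 pairs of libraries for the percentage of intervals within 10 nt. The pairs share libraries and their SD was 1.10, so small changes of that percentage counted as moved. For shares averaged over 3 libraries, dropping 1 moves the mean by less than 1 SD by construction. The mean percentage of intervals within 10 nt of another library (32.7%) became 26.03% for an overlap of at least 1 nt, 37.8% for 50 nt and 18.9% for intervals at or above the median width of their library. It was 13.8% without piwi and 24.5% with intervals of a library joined within 10 nt, both chosen after seeing the data, and between 31.4% and 33.3% when single libraries were dropped. Values over all intervals were not computed for the overlap of at least 1 nt, for 50 nt or for joined intervals. The 3 regions common to all libraries became 2 when joined within 10 nt, both in piwi, and 4 when joined within 200 nt. With each library left out they were 3 to 11, the highest value without replicate 1. The 6 genes present in every library ranged from 4 to 8 over the alternatives. The mean share of aub (0.026%) was 0.018% without replicate 3 and 0.034% without replicate 2. In replicate 1 a single interval decides the value of aub. No paired analysis was possible because the 3 libraries form 1 group.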
